A study of Mus musculus with 10 samples.

Results

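Translocation junctions were examined in the stretch of mouse chromosome 6 that lies more than 20 kb and at most 1 Mb from a fixed DNA break (mm10), which lies between the genes Trbc2 and Trbv31. These junctions numbered 521 of 68433 in all 10 libraries, chosen by position alone. The stretch holds most of the T-cell receptor beta locus on its centromeric side and a set of neighbouring genes on its telomeric side. The cells were Abelson-transformed pre-B cells of strain C57BL/6 with the genotype LIG4-/-, so every group, controls included, lacked the ligase of classical end joining. All were held in G1 by 48 h of imatinib, an inhibitor of the transforming Abl kinase, and received doxycycline at 1 µg/ml to induce a zinc-finger nuclease that cuts the bait site. The groups were etoposide (50 µM for 2.5 h, then 12 h of recovery, n = 2), IFN with etoposide, DRB with etoposide, IFN, DRB, DRB with AsiSI, AsiSI and untreated (n = 2). Groups other than etoposide and untreated had 1 library each, so they have no replicate check. DRB was added 2 h ahead and kept in the medium. The 2 AsiSI libraries also received tamoxifen at 1 µM, 20 h after doxycycline. IFN is given in the labels only as an abbreviation. Nothing in the labels says that replicates were separate cultures.

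In this assay a primer reads outward from 1 broken end, the bait, into whatever sequence that end has joined, the prey. Etoposide traps topoisomerase II, the enzyme that relaxes DNA through transient double cuts, on cut DNA. DRB blocks transcription elongation, and AsiSI is a restriction enzyme used as another source of breaks. The T-cell receptor beta locus is a row of V segments followed by D, J and C segments, with trypsinogen genes embedded between them. T cells assemble these segments with the RAG nuclease, and B-lineage cells normally do not. The nuclease cut the chromosome between the C segments and the last V segment of this locus, so both sides of the bait lie in or next to it.

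The bait read ran toward higher coordinates in all 68433 junctions, so its broken end faced the telomere. On the telomeric side, prey on the bait strand has the orientation of a deletion between the bait and the prey. On the centromeric side, prey on the bait strand has the orientation of a closed circle of the DNA in between. Prey on the other strand has the orientation of an inversion on either side. These are the geometries of joins within 1 chromosome, and joins to the other copy of chromosome 6 would read the same. So would joins to a sister chromatid in any cell not held in G1.

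Of the 521 junctions, 12 combinations of position and strand occurred more than once, 8 of them within 1 library and 4 in different libraries. The 4 shared sites are shown as they were read, with 30 bases before the prey in lower case and the first 40 prey bases in capitals. The capitals include any bases shared by bait and prey.
Beside Trbv12-1, chr6:41113327-41113366, plus strand, etoposide replicate 1: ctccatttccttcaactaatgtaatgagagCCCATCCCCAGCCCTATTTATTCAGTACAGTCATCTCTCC
Between Prss2 and Trbd1, chr6:41529024-41529063, plus strand, etoposide replicate 2: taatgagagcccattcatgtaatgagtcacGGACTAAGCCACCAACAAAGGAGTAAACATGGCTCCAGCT
The same site, IFN with etoposide: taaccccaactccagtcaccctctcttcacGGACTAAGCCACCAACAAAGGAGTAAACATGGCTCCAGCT
Fam131b start, chr6:42324800-42324839, plus strand, etoposide replicate 1: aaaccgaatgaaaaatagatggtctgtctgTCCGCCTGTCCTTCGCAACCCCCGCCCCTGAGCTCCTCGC
Fam131b start, chr6:42324807-42324846, plus strand, IFN with etoposide: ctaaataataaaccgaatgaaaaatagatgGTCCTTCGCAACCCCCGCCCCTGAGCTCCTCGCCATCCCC
All 4 shared sites came from libraries with etoposide. At position 41529024 the bait end had lost 54 bases in etoposide replicate 2 and 112 bases in the IFN with etoposide library, so the same prey base was joined to different bait ends. At position 42324800 both etoposide replicates had lost 1 base of the bait and shared 3 bases with the prey. The reads at 41113327, 42324800 and 42324807 joined the same bait base in both of their libraries, which came from different sequencing runs.

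The first question was whether etoposide raised joining to this stretch. The 4 libraries with etoposide supplied 469 of the 521 junctions, and the 6 without supplied 52. Etoposide replicates 1 and 2 held 241 and 115 junctions, the IFN with etoposide library 97 and the DRB with etoposide library 16. The other libraries held 8 (IFN), 9 (DRB), 13 (DRB with AsiSI), 7 (AsiSI) and 5 and 10 (untreated replicates 1 and 2). Libraries differed in depth, from 2044 to 13425 junctions, and in how many lay within 20 kb of the bait, from 957 to 10472. Counts were therefore set against 1000 junctions within 20 kb of the bait, called the rate below.

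The rate was 252 (95% interval 218 to 290) and 29.5 (24.3 to 35.5) in etoposide replicates 1 and 2, and the untreated libraries had 4.47 (1.45 to 10.5) in replicate 1 and 1.90 (0.911 to 3.50) in replicate 2. Both etoposide libraries lay above both untreated ones, and the intervals, which cover counting error only, did not overlap. Within replicate 1 the rate was 56.4-fold higher with etoposide (interval 23.6 to 176, Fisher's exact test, two-sided, p = 4.66e-67). Within replicate 2 it was 15.5-fold higher (8.13 to 33.3, Fisher's exact test, p = 4.65e-31). The group means were 141 ± 157 with etoposide and 3.18 ± 1.82 untreated (SD, n = 2 each). The difference was 4.89 on the log2 scale (two-sided exact permutation p = 0.333, and no smaller value is possible with 2 libraries a group). Etoposide replicate 1 held only 957 junctions near the bait, against 3898 in replicate 2, and its rate was the higher. As a share of all junctions the spread was smaller, with 20.5 and 14.9 per 1000 in the etoposide libraries and 2.45 and 1.58 per 1000 in the untreated ones. The 2 replicates were sequenced apart: untreated and etoposide replicate 1 shared a run, and those of replicate 2 did not.

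Prey elsewhere in the genome was also more frequent with etoposide, and the gap was smaller against it. Per 1000 prey junctions beyond 1 Mb and outside antigen receptor loci, etoposide replicates 1 and 2 held 23.4 and 34.9 junctions in this stretch, against 7.40 and 27.0 in the untreated libraries. On that scale the ratio was 3.16 in replicate 1 (interval 1.33 to 9.86, Fisher's exact test, p = 0.00419) and 1.29 in replicate 2 (0.669 to 2.79, Fisher's exact test, p = 0.545).

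**Figure D1:**
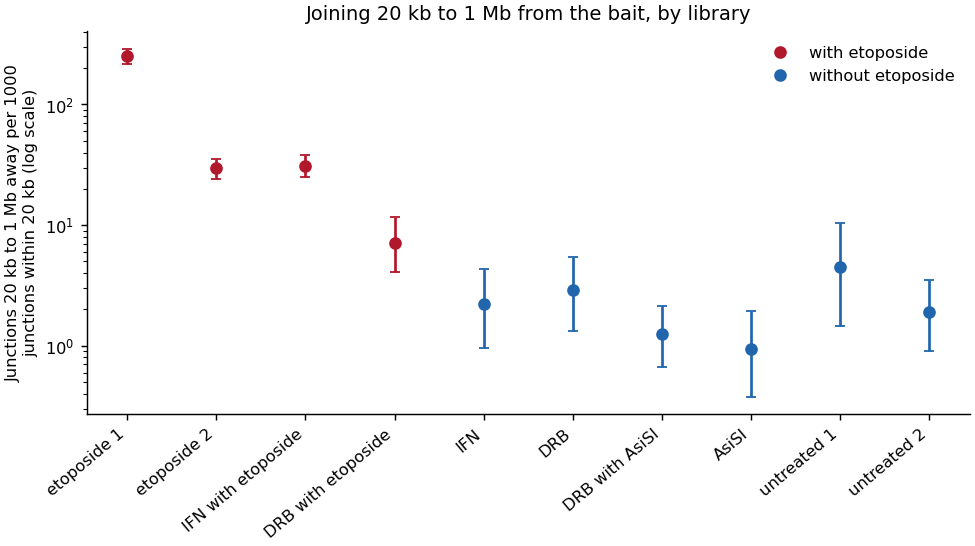
Junctions 20 kb to 1 Mb from the bait per 1000 junctions within 20 kb (log axis), 1 point per library with its exact 95% binomial interval, which covers counting error only. Etoposide replicate 1 stood at 252, etoposide replicate 2 and IFN with etoposide at 29.5 and 31.1, DRB with etoposide at 7.15, and every library without etoposide at or below 4.47.

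With etoposide, joining did not fall off evenly with distance. On the centromeric side the 4 libraries held 97 junctions at 20 to 50 kb, 24 at 50 to 100 kb, 21 at 100 to 200 kb, 163 at 200 to 500 kb and 76 at 500 to 1000 kb. As densities these were 323, 48.0, 21.0, 54.3 and 15.2 per 100 kb, so the 200 to 500 kb bin stood above the bins at 50 to 100 and 100 to 200 kb and below the nearest one. In etoposide replicates 1 and 2 the density at 200 to 500 kb was 31.3 and 11.7 per 100 kb, above both middle bins (24 and 13 in replicate 1, 8 and 4 in replicate 2). The IFN with etoposide library had 9.67 per 100 kb there, above the 3 at 100 to 200 kb and below the 14 at 50 to 100 kb, which rests on 7 junctions. The telomeric side had another shape. There the 4 libraries held 10, 7, 2 and 3 junctions in the 4 bins up to 500 kb and 66 at 500 to 1000 kb. The last bin had 13.2 per 100 kb, against 1.00 per 100 kb at 200 to 500 kb.

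In sum, the 6 libraries without etoposide had their junctions nearer the bait on both sides. They held 20, 1, 2, 1 and 4 junctions in the 5 centromeric bins and 9, 4, 4, 2 and 5 in the telomeric ones. The 4 libraries with etoposide had 10213 junctions within 20 kb, against 31031 in the 6 without. The median distance in the sums was 305 kb (centromeric) and 722 kb (telomeric) with etoposide, against 34.0 and 98.3 kb without. Etoposide replicates 1 and 2 had median distances of 386 and 301 kb, the IFN with etoposide library 372 kb and the DRB with etoposide library 196 kb. The median was 57.8 kb with IFN, 31.3 kb with DRB, 31.2 kb with DRB and AsiSI, 27.4 kb with AsiSI, and 58.6 and 111 kb in the untreated libraries. The mean of the medians was 343 ± 59.5 kb with etoposide and 84.7 ± 37.0 kb untreated (SD, n = 2 each; exact permutation p = 0.333, the smallest possible). Junctions beyond 100 kb were 185 of 241 against 2 of 5 in replicate 1, and 71 of 115 against 5 of 10 in replicate 2. Neither difference passed (Fisher's exact test, adjusted p = 0.312 and 0.682 over 24 tests). The IFN and DRB pairs did not pass either (Fisher's exact test, adjusted p = 0.337 and 0.198).

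A power law fitted by maximum likelihood gave exponents of 0.54 (interval 0.42 to 0.66) and 0.89 (0.73 to 1.05) in etoposide replicates 1 and 2. Untreated replicate 1 had 1.55 (0.74 to 2.55) and untreated replicate 2 had 1.20 (0.65 to 1.79). A larger exponent is a steeper fall. The intervals overlapped in replicate 2, and the permutation test again gave exact p = 0.333. Over the 4 etoposide libraries the exponent was 0.81 (0.72 to 0.90) on the centromeric side. It was 0.01 (-0.26 to 0.25) on the telomeric side. A single power law describes that side poorly, since the density was 33.3 per 100 kb at 20 to 50 kb, 1.00 at 200 to 500 kb and 13.2 in the last bin. The centromeric density also rose again, from 21.0 per 100 kb at 100 to 200 kb to 54.3 at 200 to 500 kb. The exponents with etoposide therefore summarise an uneven fall, and their intervals do not cover that misfit.

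Each bin was compared within replicate numbers as a rate per 1000 junctions near the bait, 20 tests in all. The same 7 of 10 bins were higher with etoposide in both replicates at an adjusted p under 0.05 (Fisher's exact test, Benjamini-Hochberg adjustment). They were all 5 centromeric bins and the nearest and farthest telomeric ones. At 200 to 500 kb on the centromeric side the rate was 98.2 and 8.98 with etoposide, and both untreated libraries held 0. Against the limit that 3 counts would set, this was at least 36.6-fold higher in replicate 1 and at least 15.8-fold in replicate 2 (Fisher's exact test, adjusted p = 5.37e-30 and 7.51e-13). At 500 to 1000 kb on the telomeric side the rate was 36.6 and 5.13 with etoposide, against 0 and 0.380 untreated (Fisher's exact test, adjusted p = 1.20e-11 and 9.08e-06). In the 3 telomeric bins from 50 to 500 kb, neither replicate passed, with adjusted p from 0.284 to 1. The nearest telomeric bin rests on 5 and 4 etoposide junctions. In replicate 2 that bin and the centromeric bins at 50 to 100 and 100 to 200 kb each rest on 4 junctions with etoposide, against 0 untreated (Fisher's exact test, adjusted p = 0.0469 each).

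**Figure D2:**
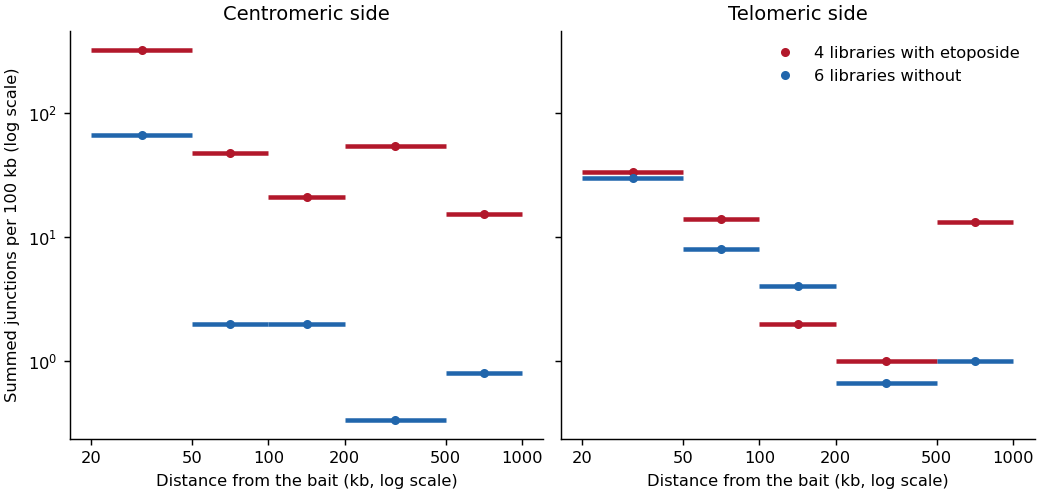
Junctions per 100 kb (log axis), summed over the 4 libraries with etoposide and over the 6 without, by distance from the bait (log axis). Horizontal bars span each bin and points mark its middle. With etoposide the centromeric side reached 54.3 per 100 kb at 200 to 500 kb and the telomeric side 13.2 per 100 kb at 500 to 1000 kb. The sums are not scaled to depth.

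Junctions lay on both sides of each limit. Just outside the inner limit, at 10 to 20 kb, etoposide replicates 1 and 2 held 30 and 20 junctions, and just inside it, at 20 to 30 kb, 21 and 29. The untreated libraries held 4 and 14 outside it and 0 and 2 inside. At the outer limit, etoposide replicates 1 and 2 held 2 and 2 junctions in the last 100 kb inside and 14 and 1 in the first 100 kb outside.

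Most junctions of the stretch lay on the centromeric side with etoposide, whereas those nearer the bait lay mostly on the telomeric side. The telomeric share of the stretch was 17.8% (interval 13.2 to 23.3) in etoposide replicate 1 and 23.5% (16.1 to 32.3) in etoposide replicate 2. IFN with etoposide had 14.4% (8.12 to 23.0), and DRB with etoposide had 4 of 16 (interval 7.27% to 52.4%). At 1 to 20 kb from the bait the same libraries had telomeric shares of 61.5%, 79.0%, 80.8% and 84.2%, and at 1 to 10 Mb they had 35.7%, 40.6%, 34.4% and 56.7%. The share was lower than at 1 to 20 kb in all 4 libraries (Fisher's exact test, adjusted p from 5.79e-37 to 7.68e-07 over 8 tests). It was lower than at 1 to 10 Mb in etoposide replicates 1 and 2 and IFN with etoposide (Fisher's exact test, adjusted p = 1.80e-07, 0.00137 and 0.000151), and with DRB and etoposide the difference did not pass (adjusted p = 0.0625). These tests compare distance classes within a library and cover counting error only. Etoposide and untreated libraries overlapped in this share, with a difference of -19.3 percentage points (SD 3.99 and 28.3, n = 2 each; exact permutation p = 0.667). The untreated values rest on 1 of 5 and 6 of 10 junctions.

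**Figure D3:**
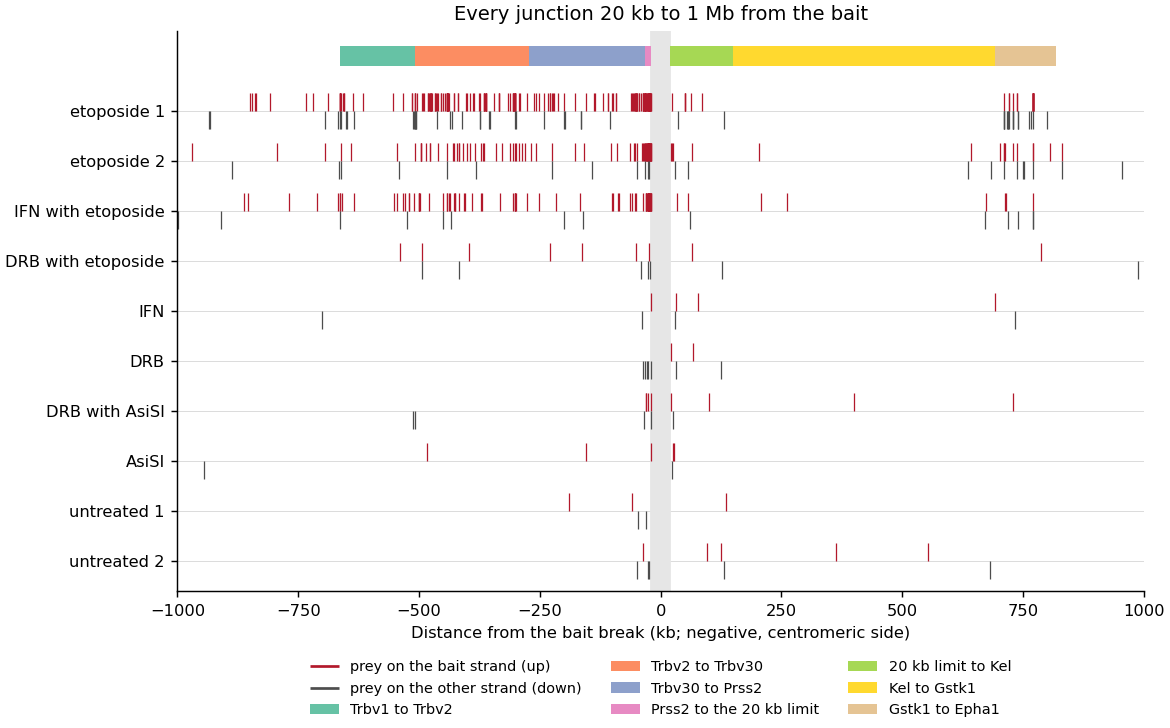
Every junction in the stretch, 1 row per library, by distance from the bait in kb. Ticks above a row are prey on the bait strand and ticks below are prey on the other strand. The coloured bar marks subregions, and the grey band is the excluded 20 kb on each side. In etoposide replicates 1 and 2 and IFN with etoposide the ticks crowd above the row on the centromeric side as far as the Trbv2 to Trbv30 stretch, and a separate group lies between Gstk1 and Epha1.

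Strand set the centromeric junctions of the stretch with etoposide apart from its telomeric ones. Prey lay on the bait strand, the orientation of a circle, in 167 of 198 centromeric junctions of etoposide replicate 1 (84.3%, interval 78.5 to 89.1). The counts were 76 of 88 in etoposide replicate 2 (86.4%, 77.4 to 92.8), 75 of 83 with IFN and etoposide (90.4%, 81.9 to 95.7) and 7 of 12 with DRB and etoposide (58.3%, 27.7 to 84.8). The 6 libraries without etoposide had 11 of 28 in sum (39.3%, 21.5 to 59.4). On the telomeric side the share was nearer to even, with 25 of 43, 16 of 27, 8 of 14 and 2 of 4 in the same 4 etoposide libraries. The centromeric share exceeded the telomeric one by 26.2, 27.1 and 33.2 percentage points in the 3 larger libraries (Fisher's exact test, adjusted p = 0.000684, 0.00851 and 0.00851 over 16 tests). With DRB and etoposide the difference was 8.33 points (odds ratio 1.40, interval 0.0748 to 25.3, Fisher's exact test, adjusted p = 1), and that interval includes the odds ratios of 3.88, 4.35 and 7.03 of the 3 larger libraries.

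The centromeric strand share differed between distance classes. At 1 to 10 Mb on that side it was 55.1%, 53.0% and 59.2% in etoposide replicates 1 and 2 and IFN with etoposide, lower than in the stretch in each (Fisher's exact test, adjusted p = 3.43e-13, 2.10e-07 and 3.18e-07). At 1 to 20 kb it was 21.2% in etoposide replicate 2, 26.4% with IFN and etoposide and 8.86% with DRB and etoposide. Each of these 3 was lower than in the stretch (Fisher's exact test, adjusted p = 1.89e-24, 3.12e-20 and 0.000609). Etoposide replicate 1 was the exception, with 77.0% at 1 to 20 kb, a difference of 7.33 points that did not pass (odds ratio 1.61, interval 0.807 to 3.14, Fisher's exact test, adjusted p = 0.26). Its untreated partner of the same run had 29.2% there, from 7 of 24 junctions. Within 1 kb on that side both libraries of this run stood apart. Etoposide replicate 1 had 59.6% (31 of 52) and untreated replicate 1 had 58.0% (51 of 88), against 19.2% to 25.4% in the other libraries. Telomeric shares of the stretch and of 1 to 10 Mb passed no test in the 4 libraries (Fisher's exact test, adjusted p from 0.167 to 1). Nearer the bait the telomeric share was higher. At 1 to 20 kb on that side, prey lay on the bait strand in 1704 of 1794 junctions over the 4 etoposide libraries (94.98%). In the stretch the same libraries had 51 of 88 (57.95%). The 6 libraries without etoposide had 5470 of 5816 and 16 of 24. The telomeric share of the stretch was not tested against 1 to 20 kb. Within the stretch, the centromeric share over the 4 etoposide libraries was 92.8% at 20 to 50 kb, 24 of 24 junctions at 50 to 100 kb, 66.7% at 100 to 200 kb, 88.3% at 200 to 500 kb and 69.7% at 500 to 1000 kb.

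With both sides together, the bait-strand share was 79.7% and 80.0% in etoposide replicates 1 and 2, against 60.0% and 50.0% in the untreated libraries, or 79.8% ± 0.235 and 55.0% ± 7.07 (SD, n = 2 each). The difference of 24.8 percentage points exceeded the spread between replicates, with exact permutation p = 0.333, the smallest possible. It rests on 3 of 5 and 5 of 10 untreated junctions, and it turned to -7.08 points when only junctions beyond 50 kb were kept and to -23.3 points without the T-cell receptor beta cluster.

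**Figure D4:**
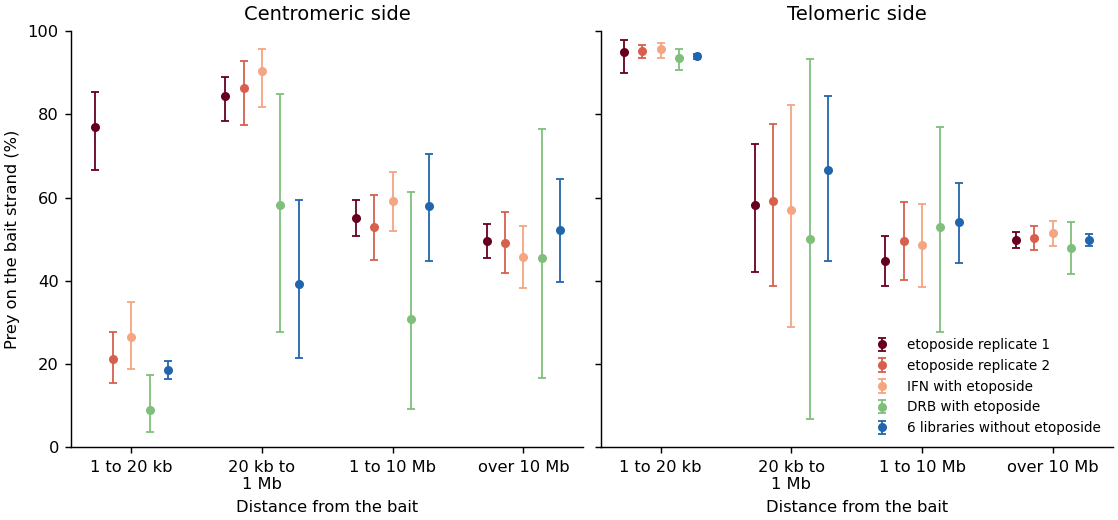
Share of prey on the bait strand by distance from the bait, for the centromeric side (left) and the telomeric side (right), with exact 95% binomial intervals. In etoposide replicates 1 and 2 and IFN with etoposide the centromeric share was 84.3% to 90.4% at 20 kb to 1 Mb and 53.0% to 59.2% at 1 to 10 Mb.

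The stretch holds 101 annotated genes and segments, of which 45 are protein-coding and 39 are T-cell receptor beta segments. The receptor cluster, from Trbv1 to Trbv31 (40891296 to 41558371), makes up 65.7% of the centromeric length. It took 356 of 381 centromeric junctions with etoposide (93.4%, interval 90.5 to 95.7) and 26 of 28 without (92.9%, 76.5 to 99.1). Within it, the stretch of 234 kb from Trbv2 to Trbv30 held 84 and 31 junctions in etoposide replicates 1 and 2, 28 with IFN and etoposide and 4 with DRB and etoposide. The 6 other libraries held 1 in sum there, with AsiSI. This stretch carried 62.7 junctions per 100 kb over the 4 etoposide libraries, and 129 of its 147 lay on the bait strand. The next 240 kb toward the bait, which hold Try4, Try5, Try10, Prss3 and Prss1 of the trypsinogen genes, carried 35.0 per 100 kb. The 156 kb from Trbv1 to Trbv2 carried 29.4 per 100 kb. The 336 kb beyond the cluster, with Mgam and Clec5a, carried 7.43 per 100 kb. These subregions were drawn from the annotation after the positions had been seen.

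The segments held 21 of the 382 junctions in the receptor cluster (5.50%), 20 of them from etoposide libraries. They cover 2.45% of the cluster outside the excluded 20 kb, so their density was 133 junctions per 100 kb, against 59.3 in the cluster as a whole. That density is a sum to which the etoposide replicates gave unequal parts. Etoposide replicate 1 held 14 of the 21, among its 185 cluster junctions, and etoposide replicate 2 held 1, among its 83. Of the 39 segments 11 held a junction. Trbv1 held 7, with 5 in etoposide replicate 1 and 2 with IFN and etoposide. Without Trbv1 the segments held 14. Trbv12-1 held 4, and the other 9 held at most 2 each. In the D and J region nearest the bait, Trbd1 held 0 and Trbj1-2 held the single junction inside a J segment of the stretch, from the DRB with AsiSI library. The heptamer of the recombination signal at which RAG cuts was searched as CACAGTG or its reverse complement. It occurred in the first 20 prey bases of 0 of 521 junctions. This allows a share of up to 0.576% by the limit of 3 counts and 0.706% by the exact interval. It occurred in 1.41% (interval 1.09 to 1.79) of immunoglobulin kappa locus junctions in libraries without etoposide. In prey beyond 1 Mb outside antigen receptor loci it occurred in 0.636% (0.522 to 0.766) with etoposide and 0.453% (0.259 to 0.734) without. The exact interval of the stretch overlaps both of these last intervals. A match is only a match of letters, and ends joined with the signal on the far side would not show it.

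Trypsinogen genes encode digestive proteases of the pancreas. Of 8 listed genes 7 lie in the stretch, and each held junctions (31 in sum, 28 with etoposide). Prss37 lies outside. Prss2 led with 16 junctions in a gene of 3.30 kb. It held 6 and 4 in etoposide replicates 1 and 2, 3 with IFN and etoposide, 1 each with DRB and with DRB and AsiSI, and 1 and 0 in the untreated libraries. Prss2 is the trypsinogen gene nearest the bait, and its lower coordinate lies 33.2 kb away. Try10 held 4, Prss58 3, and Try4, Try5, Prss3 and Prss1 2 each. The unlisted genes 2210010C04Rik and Gm5771 held 3 each and Gm10334 held 2, all with etoposide. Near-identical copies lie in this array and among the V segments, so reads from them may have been lost or placed on the wrong copy by the mapping.

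The most crowded ground was the 13.2 kb between the start of Prss2 and the inner limit, which includes Trbd1 and the first J segments. It held 26 and 29 junctions in etoposide replicates 1 and 2, 21 with IFN and etoposide and 3 with DRB and etoposide. It held 1 with IFN, 4 with DRB, 5 with DRB and AsiSI, 1 with AsiSI and 1 and 2 in the untreated libraries. Junctions occurred there in all 10 libraries. With etoposide 74 of 79 lay on the bait strand (93.7%, interval 85.8 to 97.9), and without it 6 of 14.

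On the telomeric side most etoposide junctions lay in 1 group of genes far from the bait. The 127 kb from Gstk1, a glutathione transferase gene, to Epha1, an ephrin receptor gene, held 35 and 14 junctions in etoposide replicates 1 and 2, 7 with IFN and etoposide and 1 with DRB and etoposide. The other 6 libraries held 3 in sum, 2 with IFN and 1 with DRB and AsiSI. This was 44.7 per 100 kb over the etoposide libraries, against 1.48 per 100 kb in the 542 kb between Kel and Gstk1, which hold the secretory genes Pip, Sval1, Sval2 and Sval3. Between the inner limit and Kel the density was 14.7 per 100 kb with etoposide (19 junctions) and 13.1 without (17 junctions). These sums are not scaled to depth, so the 2 densities cannot be read as equal rates. The libraries with etoposide had 10213 junctions within 20 kb of the bait, and those without had 31031.

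Casp2, which encodes a caspase of the cell death pathway, held 16 junctions. They comprised 10 and 3 in etoposide replicates 1 and 2 and 3 with IFN and etoposide, and the 7 other libraries held 0. Clcn1, the chloride channel gene of skeletal muscle, held 5 and 4 in the etoposide replicates, 1 with IFN and etoposide and 1 with IFN. Zyx, which encodes a focal adhesion protein, held 1 and 1 in the etoposide replicates. In this group of genes prey lay on the bait strand in 32 of 57 etoposide junctions (56.1%, interval 42.4 to 69.3). Without the 16 junctions at the start of Fam131b, described next and left out after their strand was seen, it was 16 of 41 (39.0%, 24.2 to 55.5).

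A single site next to the start of Fam131b was the most crowded 50 bases of the whole stretch. It held 16 junctions at 14 positions between 42324800 and 42324849, from 160 to 209 bases upstream of the annotated start. They came from etoposide replicate 1 (13), etoposide replicate 2 (2) and IFN with etoposide (1), and the other 7 libraries held 0. All 16 lay on the bait strand, the orientation of a deletion. The next most crowded 50 bases of the stretch held 5. The bait ends of the 16 were at 10 different bases, and 14 combinations of bait and prey base occurred. Bait and prey shared at least 1 base in 15 of the 16. The promoter of Fam131b from RefSeq is shown because the junctions fall inside it (GRCm38.p6, chr6:42324591-42324890, minus strand). It is written along the gene, with the 50 bases that span the junctions in capitals.
Fam131b promoter: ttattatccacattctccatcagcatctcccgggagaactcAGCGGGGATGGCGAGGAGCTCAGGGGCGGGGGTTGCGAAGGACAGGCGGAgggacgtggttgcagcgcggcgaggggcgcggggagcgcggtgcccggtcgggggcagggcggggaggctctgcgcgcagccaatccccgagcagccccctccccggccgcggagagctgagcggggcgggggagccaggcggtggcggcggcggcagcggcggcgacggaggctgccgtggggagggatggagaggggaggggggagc
All 16 prey reads matched this sequence at 90% or more of the bases compared. G and C make up 75% of it.

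Fam131b also carried the counts near gene starts. Within 1 kb of its start lay 20 junctions, 14 and 3 in etoposide replicates 1 and 2 and 3 with IFN and etoposide. Over the 4 etoposide libraries, 27 of 88 telomeric junctions (30.7%, interval 21.3 to 41.4) lay within 1 kb of a protein-coding start, where such ground covers 5.31% of that side. Without Fam131b it was 7 of 68 (10.3%), and prey on the bait strand was 35 of those 68 (51.5%). On the centromeric side the share was 3.67% (2.02 to 6.09), and such ground covers 3.06%. Starts were known for 41 of the 45 protein-coding genes.

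Protein-coding gene bodies held 20.3% (15.4 to 26.0) and 16.5% (10.3 to 24.6) of junctions in etoposide replicates 1 and 2, 19 of 97 with IFN and etoposide and 2 of 16 with DRB and etoposide. They held 2 of 5 and 2 of 10 in the untreated libraries. They cover 22.2% of the stretch. The etoposide and untreated libraries differed by -11.6 percentage points (SD 2.69 and 14.1, n = 2 each; exact permutation p = 0.667), within the spread of the untreated ones. With etoposide, gene bodies took 45.5% (34.8 to 56.4) of telomeric junctions and 12.9% (9.67 to 16.6) of centromeric ones, and they cover 20.6% and 23.9% of those sides.

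The pseudogene Gm2719 held 12 junctions, 8 and 1 in etoposide replicates 1 and 2 and 3 with IFN and etoposide. The remaining genes held 10 or fewer. Mgam, which encodes an intestinal enzyme that splits starch, held 5 and 2 in etoposide replicates 1 and 2 and 3 with IFN and etoposide, in 140 kb. Ephb6, a receptor of the ephrin family without kinase activity, held 4 and 2 in the etoposide replicates, 2 with IFN and etoposide and 0 elsewhere. The calcium channel gene Trpv5 held 4 junctions, all without etoposide: 1 with DRB, 1 with DRB and AsiSI and 0 and 2 in the untreated libraries. Its neighbour Trpv6 held 3, of which 1 came from an etoposide library. The 12 taste and olfactory receptor genes of the stretch held 0 in any library. They span 13.9 kb in all, and at the mean density of the stretch, 26.6 junctions per 100 kb, such a length would hold only a few.

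The comparison with DRB set joining under blocked transcription against joining without the block. With DRB and etoposide the rate was 7.15 (interval 4.08 to 11.6), against 252 in etoposide replicate 1, the control that the labels name, and 29.5 in etoposide replicate 2, which shared its sequencing run. The ratio was 0.0284 (0.0159 to 0.0474) to replicate 1 and 0.242 (0.134 to 0.412) to replicate 2 (Fisher's exact test, adjusted p = 1.39e-95 and 3.63e-09, each over 8 single-library comparisons). Against DRB alone (2.87, 1.31 to 5.46) the rate was 2.49-fold higher (1.03 to 6.39), which did not pass (Fisher's exact test, adjusted p = 0.0796). Beyond 50 kb, where the DRB with etoposide library held 12 junctions and the DRB library 2, it was 8.39-fold higher and passed (Fisher's exact test, adjusted p = 0.00294). All these tests compare libraries, not conditions. Per 1000 prey junctions beyond 1 Mb outside antigen receptor loci, the DRB with etoposide library held 63.0 junctions of the stretch, against 23.4 and 34.9 in the etoposide libraries and 53.3 in the DRB library. On that scale its ratio to etoposide replicate 1 was 2.69 (1.49 to 4.55, Fisher's exact test, adjusted p = 0.00573). Its ratio to etoposide replicate 2 of the same run was not tested on that scale. Its 16 junctions included 4 in the Trbv2 to Trbv30 stretch and 0 in Casp2 and within 1 kb of the Fam131b start.

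The rate with IFN and etoposide stood at 31.1 (25.1 to 38.1), a ratio of 1.05 (0.793 to 1.40, Fisher's exact test, adjusted p = 0.726) to etoposide replicate 2 of the same run and of 0.123 (0.0955 to 0.159, adjusted p = 2.22e-69) to etoposide replicate 1, which the labels name as its control. The direction differs between the control libraries. Against IFN alone (2.21, 0.953 to 4.36) the rate was 14.1-fold higher (6.85 to 33.6, Fisher's exact test, adjusted p = 4.03e-23). Per 1000 prey junctions beyond 1 Mb outside antigen receptor loci it was 29.5, against 37.2 with IFN alone, a ratio of 0.793 (0.380 to 1.91) that did not pass (Fisher's exact test, adjusted p = 0.710). Side, strand, gene body share and share beyond 100 kb passed no test against etoposide replicate 2 (Fisher's exact test, adjusted p from 0.337 to 0.749 over 24 tests). The odds ratio was 0.550 (0.249 to 1.18) for the telomeric share and 1.48 (0.678 to 3.33) for the bait-strand share.

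Libraries without etoposide were compared on 52 junctions in sum. The rate with IFN was 1.16-fold that of untreated replicate 2 of the same run (interval 0.398 to 3.27), and that with DRB 1.51-fold (0.543 to 4.15). The AsiSI library had a rate of 0.943 (0.379 to 1.94), a ratio of 0.496 (0.160 to 1.45) to untreated replicate 2. DRB with AsiSI had 1.24 (0.661 to 2.12), a ratio of 1.32 (0.488 to 3.90) to AsiSI. None of these 4 comparisons passed (Fisher's exact test, adjusted p from 0.347 to 0.812). The AsiSI library was lower than untreated replicate 1, with a ratio of 0.211 (0.0576 to 0.845, Fisher's exact test, adjusted p = 0.0369). Per 1000 prey junctions beyond 1 Mb outside antigen receptor loci it was also lower than untreated replicate 2, with a ratio of 0.278 (0.0892 to 0.817, Fisher's exact test, adjusted p = 0.0477). The AsiSI libraries share no sequencing run with the untreated ones.

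Bait and prey shared at least 1 base in 89.6% (86.4 to 92.2) of junctions of the stretch with etoposide, against 76.9% (63.2 to 87.5) without, and the median overlap of those was 3 bases with etoposide and 2.5 without. With etoposide, inserted bases occurred in 2.13% (1.03 to 3.89) of junctions of the stretch, 3.60% (3.33 to 3.89) of prey beyond 1 Mb outside antigen receptor loci and 19.2% (18.4 to 20.0) of junctions within 20 kb. Without etoposide they occurred in 13.5% (5.59 to 25.8), from 7 of 52. The bait end had lost a median of 51.0 bases in junctions of the stretch with etoposide and 34.0 without. These differences were not particular to the stretch. In prey beyond 1 Mb outside antigen receptor loci, bait and prey shared bases in 85.4% with etoposide and 68.1% without. There, inserted bases occurred in 18.0% without etoposide, and the median bait loss was 54 bases with etoposide and 31 without.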

How the data were processed

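In the deposited files every row is a single junction, given by position, strand and alignment offsets, per the file headers. These are the authors' calls, positions rather than counts, and per the labels' protocols they come from the usual analysis software of this method. Builds mm10 and GRCm38.p2 and the tool bedtools stand in the submitters' processing notes. Genes, starts and promoters came from RefSeq (GRCm38.p6). Identical positions were all kept, and 83 junctions off the main chromosomes stayed out of prey totals. Read names gave 4 sequencing runs: untreated and etoposide replicate 1 shared one, untreated replicate 2 shared one with IFN and DRB, the 3 other etoposide libraries shared one, and both AsiSI libraries shared one. An antigen receptor locus was a chain of 10 or more segments with gaps of at most 1 Mb. Binomial and odds-ratio intervals are exact at 95%, and Fisher's exact tests and intervals cover counting error only. P-values over libraries reflect how far these libraries differ, possibly for technical reasons. Distances were fitted by a power law, tested on simulated distances. Named genes were the 20 with the most junctions, with ties, members of 7 gene lists and the 10 fullest windows of 5 kb. The junctions, lists and subregions were chosen with earlier results of these data known. Python 3.11.15 and scipy 1.17.1 were used.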

Additional observations from a re-analysis of the deposited data

Results flagged for a closer look

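The rate of joining was 2.49-fold higher with etoposide between the DRB libraries, a ratio that did not pass its own test. It was 15.5-fold higher between the replicate 2 libraries. In both ratios the libraries with etoposide shared a sequencing run that held none of those without, so drug and run cannot be told apart. The ratio of these ratios was 0.160 (95% Wald interval 0.0564 to 0.455). Counted beyond 50 kb it was 0.484 (0.0873 to 2.69), and per prey junction beyond 1 Mb outside antigen receptor loci it was 0.916 (0.316 to 2.66), and both of these intervals include 1. With IFN the ratio of ratios was 0.907 (0.344 to 2.39).

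The rate was 56.4-fold higher with etoposide in replicate 1 and 15.5-fold higher in replicate 2, a ratio of 3.63 (1.21 to 10.9). As a share of all junctions the ratio was 0.897 (0.299 to 2.69), per prey junction beyond 1 Mb outside antigen receptor loci 2.45 (0.812 to 7.39), and up to 500 kb 2.71 (0.855 to 8.56). Etoposide replicate 1 held 957 junctions within 20 kb of the bait and etoposide replicate 2 held 3898, and the part of this gap in the result was not tested beyond the change of scale. These intervals cover counting error only.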

How the results depend on the processing

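Among the alternative values, 95 kept their direction and side of the threshold, 13 reversed, 3 passed a threshold that the value in the text missed and 1 untested share moved. The permutation and sign-flip tests of etoposide against untreated could not reach the threshold at any setting. For those comparisons, which are among the values counted, only the direction could change. On the log2 scale of the rate, IFN with etoposide against etoposide was -3.02 and turned to 0.0761 with etoposide replicate 2 as control and to 0.34 per prey beyond 1 Mb outside antigen receptor loci, a scale added after seeing the data. On that scale IFN with etoposide against IFN turned to -0.33, DRB with etoposide against etoposide to 1.43, and AsiSI against untreated passed at -1.85. IFN against untreated (0.22) turned to -1.02 with untreated replicate 1 as control, -0.0459 from 50 kb and -0.14 up to 500 kb. DRB against untreated (0.60) turned to -0.64 with untreated replicate 1 as control and -0.84 from 50 kb. AsiSI against untreated replicate 1 passed at -2.24, DRB with etoposide against DRB passed at 3.07 from 50 kb, and DRB with AsiSI against AsiSI turned to -0.17 without the T-cell receptor beta cluster. The bait-strand share difference turned to -7.08 points from 50 kb and -23.3 points without that cluster. The causes were not tested.

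Leaving out 1 of the 4 etoposide and untreated libraries gave log2 rate differences from 3.34 to 6.43, telomeric share differences from -39.3 to 0.66 points (the last without untreated replicate 2), bait-strand share differences from 19.8 to 29.8 points, median distance differences from 217 to 301 kb, exponent differences from -0.84 to -0.49 and gene body differences from -21.6 to -1.57 points. With the replicate block the log2 rate difference was 4.89, the same as without it, and the exact sign-flip test over 2 pairs gave p = 0.5, the smallest possible. The block left the other differences unchanged, and its test could not reach the threshold for any of them. The correlation of same-numbered deviations over 382 bins of 5 Mb was 0.0551. By the labels and read names, same-numbered libraries share a number and, in replicate 1, a run. With 5 and 10 untreated junctions, shares in those libraries are known only within wide intervals.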

Other observations

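Junctions were uneven within the stretch. Among the windows of 5 kb that reach into the stretch, 163 of 394 held a junction, and the 10 with the most held 184 of the 521. The 3 fullest, which adjoin each other from Prss2 to the first J segments, held 29 and 30 in etoposide replicates 1 and 2, 21 with IFN and etoposide and 3 with DRB and etoposide, and 1 to 5 in each of the other 6 libraries. The window at 41250000 held 15 junctions in 3 etoposide libraries (10, 2 and 3), of which 12 lay inside Gm2719, an annotated pseudogene of 1.10 kb. The window at 40890000, with Trbv1, held 8, 2 and 3 in etoposide replicates 1 and 2 and IFN with etoposide, and that at 41110000, with Trbv12-1, held 7, 2 and 2. The window at 42265000, inside Casp2, held 4, 3 and 2. None of these 4 windows held a junction in the DRB with etoposide library or in the 6 libraries without etoposide. Other windows of like size differed. The window at 41515000 held 4 of its 11 junctions without etoposide, and that at 41045000 held 1 of 10. The window at 41500000 held 1 of 10 with DRB and etoposide. The window at 42265000, with 9 junctions, is not among the 10 fullest. The DRB with etoposide library held only 16 junctions in the whole stretch.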
